A study of Drosophila melanogaster with 21 samples.

Results

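Oxidative phosphorylation subunits were examined in the female lower reproductive tract of Drosophila melanogaster, the upper uterus with the sperm-storage organs and the accessory glands, where sperm and seminal fluid are received. Members were chosen by current gene symbol alone: names that begin with ND-, COX and a digit from 4 to 8, ATPsyn, UQCR or SdhA to SdhD, together with Cyt-c1, RFeSP and Cyt-c-p. The rule found 70 probe sets for 68 genes, of 13966 probe sets and 10844 genes tested. They comprised 31 genes of complex I, 6 of complex II, 6 of complex III, 11 of complex IV and 14 of complex V. A further 22 genes that match the rule by name, among them SdhA, UQCR-C1, UQCR-C2 and Cyt-c-p, were not analysed here, nor were the 13 subunits encoded by mitochondrial DNA.

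The tissue came from females that were 3 days old and were held at 23 C, each array carrying the pooled tracts of 12 to 40 females. Unmated females (5 arrays) were compared with mated females dissected at the end of mating (0 h, 6 arrays) or 3 h (4 arrays), 6 h (3 arrays) or 24 h (3 arrays) later. No strain is named in the sources at hand. RNA came from whole tracts of many cell types, so fewer cells of a type and less RNA per cell cannot be told apart, and p-values measure the spread between pools. Of the marker genes checked, Send1, a protease of the spermatheca, was among the brightest signals (geometric mean signal 8665). However, only 4 of 8 spermatheca and accessory gland markers lay above the array medians on average. So did 14 of 16 muscle markers and 13 of 14 fat body and hemocyte markers. Of 14 ovary and oocyte markers 5 did so, of 10 neuronal markers 2 and of 16 testis and sperm markers 3.

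Oxidative phosphorylation couples the burning of fuel to the making of ATP in the inner mitochondrial membrane. Complex I takes electrons from NADH and complex II from succinate, complex III passes them through cytochrome c to complex IV, which hands them to oxygen, and the proton gradient built on the way drives complex V, the ATP synthase. Most subunits are encoded in the nucleus, and in Drosophila many of them have a second, duplicated gene whose transcript is known mainly from the testis. In a tract of muscle and gland, their ATP serves contraction and secretion.

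The subunits were among the brightest transcripts of the tract. On average over 21 arrays, 48 of the 68 genes had a signal above the 90th percentile of all probe sets, and the median subunit among the 53 genes that are not duplicated copies lay at percentile 97.2. Their signals separated into a bright group of 49 genes, from 295 for ND-18, an accessory subunit of complex I, to 7593 for UQCR-Q, a small ubiquinone-binding subunit of complex III, and 4 dim ones. The dim ones were COX7C (3.38), COX6AL2 (2.88), ND-B8 (18.0) and ATPsynepsilonL (76.5), against array medians of 35.6 to 57.7. COX6AL2 and ATPsynepsilonL carry an L in their names as well and were counted outside the copies solely because no annotated symbol matched the rest of the name, so their place is uncertain. The 49 are called bright standard subunits below. They were separated after the values had been seen and are described without a test.

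**Figure D1:**
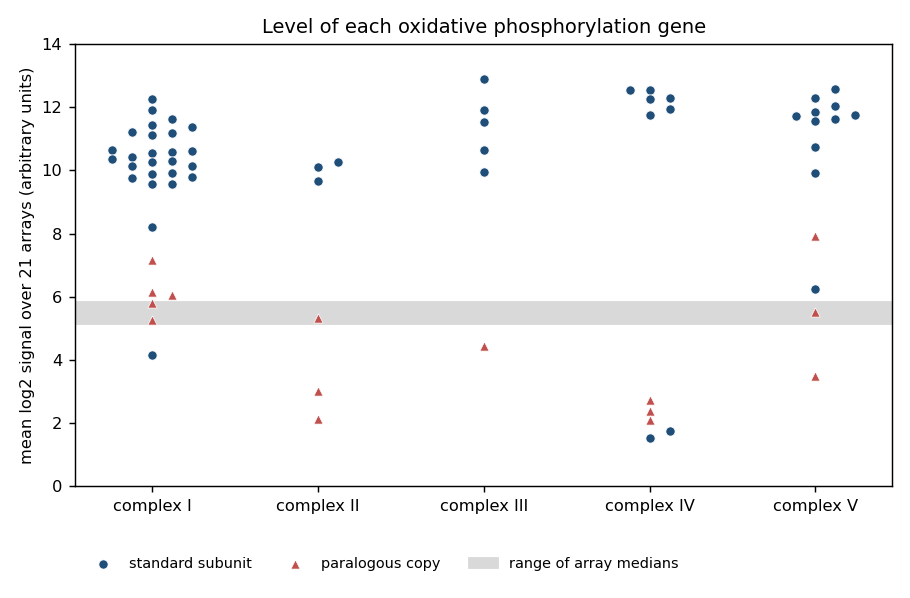
Mean log2 signal over 21 arrays (arbitrary units) of each of the 68 genes, by complex. Circles are subunits that are not duplicated copies, triangles are duplicated copies, and the grey band is the range of array medians; no duplicated copy reaches 8, whereas all bright standard subunits lie above it.

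The brightest genes of each complex were ND-B16.6 of complex I (4861), SdhB of complex II (1237), UQCR-Q of complex III (7593), COX7B of complex IV (5934) and ATPsynE of complex V (6057). The median signal of the bright standard subunits was 1375 for complex I (25 genes), 1097 for complex II (3), 2985 for complex III (5), 4937 for complex IV (6) and 3405 for complex V (10). Probe sets differ in how strongly they respond to the same amount of RNA, so this order describes the arrays and not transcript abundance.

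The 15 duplicated copies, genes whose symbol adds an L to that of another annotated subunit, were dim: their median signal was 38.3, 0 of them reached the 90th percentile and 9 lay below the 50th. COX4 and COX4L, parent and copy of the same complex IV subunit, had signals of 5924 and 5.26. For COX5B and COX5BL, which lie close together with 1 gene between them, the signals were 4856 and 6.64. SdhC, which anchors complex II in the membrane, was at 820 and SdhCL at 4.39. ATPsynbetaL, the copy of the catalytic ATP synthase subunit, was the brightest copy at 241, and its signal was above the array median on all 21 arrays. ND-B14.5AL was also above the median on every array, at 143 on average. No detection calls were used here, and a low signal does not show that a transcript was absent.

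**Figure D2:**
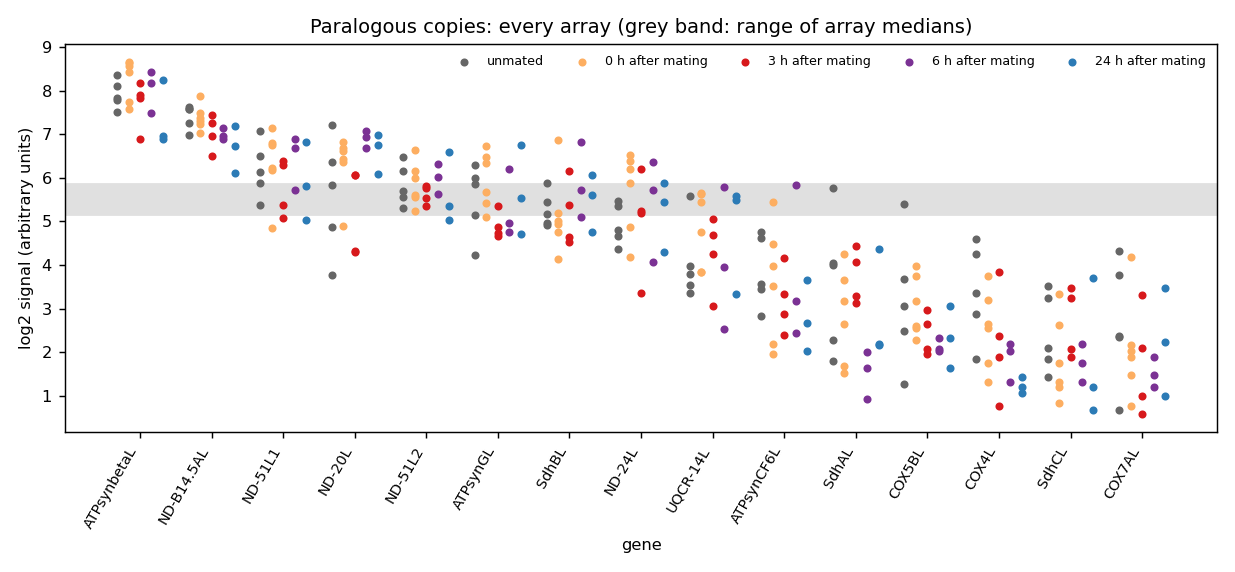
log2 signal (arbitrary units) of the 15 duplicated copies on every array, coloured by group, in order of mean signal. The grey band is the range of array medians; ATPsynbetaL and ND-B14.5AL lie above it on every array and the last 5 genes, from SdhAL to COX7AL, exceed the median of their array on 0 of 21 arrays.

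The comparisons with unmated females ask which transcripts of the tract differ after mating. No oxidative phosphorylation gene passed an adjusted p of 0.05 at any time. At 0 h, 0 of 68 genes passed, against 0% of all probe sets. The same count of 0 stood against 0.115% for 3 h, 1.84% for 6 h and 0% for 24 h. At an unadjusted p of 0.05, 8 of the 68 passed at 0 h (7.43% of all probe sets), 0 at 3 h (7.64%), 8 at 6 h (17.7%) and 2 at 24 h (7.85%). Between neighbouring times 0 members passed the adjusted test as well, where 0.0644% of all probe sets did for 3 h against 0 h, 0.451% for 6 h against 3 h and 0.0358% for 24 h against 6 h. At the unadjusted threshold 12 (6.9%), 15 (11.7%) and 0 (6.75%) members passed. In the F test over all 5 groups, 0 members passed the adjusted test (0.344% of all probe sets) and 8 an unadjusted p of 0.05 (11.8%). Weighting arrays by quality changed this for 2 of the tests: for 3 h against 0 h, 6 members then passed, all lower at 3 h, against 0.988% of all probe sets, and in the F test 1 member, ND-SGDH, against 2.03%. The weighted fit had no term for processing run, a division of the arrays described below.

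Although no gene passed, the median of the members in the model without run lay above that of all probe sets at each time. The lead was slight at 3 h. At 0 h the median log2 change of the 68 genes was 0.42, with 57 above 0, while the median of all probe sets was -0.10. At 3 h it was -0.10 with 21 above 0 (all probe sets -0.14), at 6 h 0.46 with 55 above 0 (-0.21), and at 24 h 0.20 with 50 above 0 (-0.10). In order of time, 83.8%, 30.9%, 80.9% and 73.5% of the members were above 0. Of all probe sets 41.8%, 38.9%, 39.6% and 42.7% were, so at 3 h the share was lower among the members. The 24 h median became -0.11 without 24 h replicate 3 and 0.42 without 24 h replicate 1, and the 6 h median 0.25 without 6 h replicate 3. The 3 h median was -0.27 without 3 h replicate 3 and -0.03 without 3 h replicate 1. All 4 comparisons share the same unmated arrays. The bright standard subunits had medians of 0.43, -0.08, 0.53 and 0.26 at these times and the duplicated copies of -0.02, -0.36, -0.03 and -0.46. Probe sets whose mean signal exceeded the median of all had medians of -0.04, -0.01, -0.05 and 0.00.

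The 5 complexes had similar medians when the bright standard subunits alone were taken. Those of the bright standard subunits at 0 h were 0.45 for complex I, 0.43 for complex II, 0.39 for complex III, 0.45 for complex IV and 0.43 for complex V. At 6 h they were 0.53, 0.60, 0.71, 0.52 and 0.43 in the same order. At 24 h they were lower, at 0.33, 0.20, 0.37, 0.22 and 0.13. At 3 h they ran from -0.20 for complex IV to 0.11 for complex II. With every member gene, dim ones and copies included, complex II lay lower. The medians of complexes I to V were then 0.45, -0.09, 0.46, 0.42 and 0.43 at 0 h. At 6 h they were 0.47, 0.19, 0.56, 0.47 and 0.39, and at 24 h 0.30, -0.002, 0.37, 0.04 and 0.13. At 3 h complex II was the highest with every member gene as well, at 0.13, and complex IV the lowest, at -0.25. The ranges of genes overlapped among all complexes at each time, and no difference between complexes was tested.

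**Figure D3:**
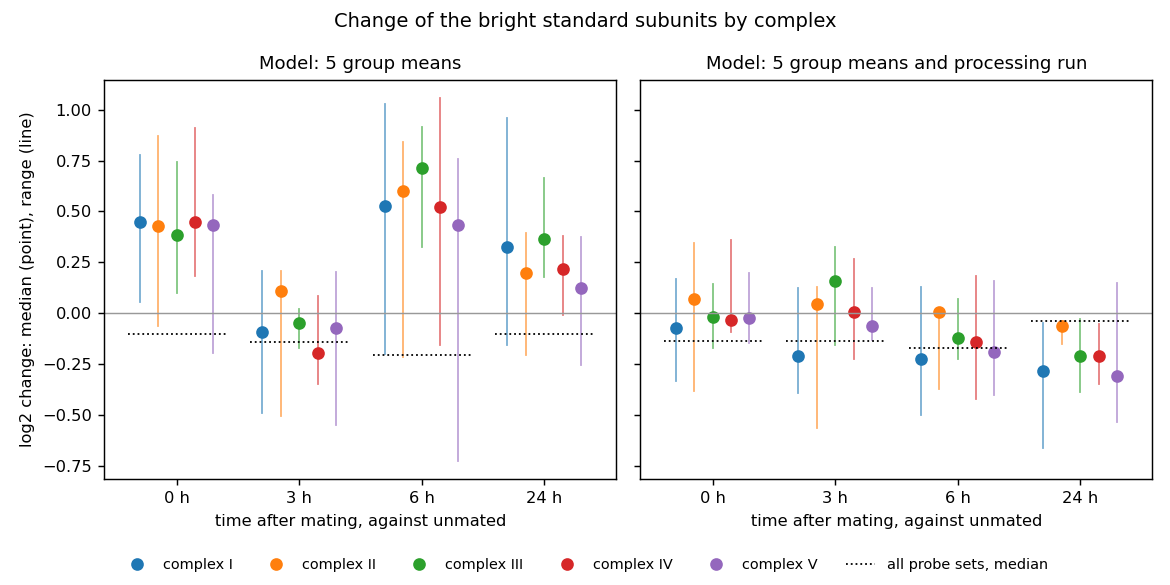
log2 change of the bright standard subunits against unmated females, by complex and time after mating: points are medians over genes, lines run from the lowest to the highest gene, and dotted lines are medians of all probe sets. In the model with 5 group means (left) the medians at 0 h lie between 0.39 and 0.45, and with processing run as a further term (right) between -0.07 and 0.07.

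These medians moved with a second division of the arrays. Gaps between the array numbers that the labels give divide the arrays into 6 processing runs, an inference that no label states. Unmated females were spread over run 1 (3 arrays, with nothing else) and run 3 (2 arrays). The 0 h arrays came from run 4 (2) and run 5 (4). Run 2 consisted of 2 of the 3 h arrays, and the other 3 h arrays came from runs 3 and 5. Runs 4, 5 and 6 contributed a 6 h array each, and runs 3, 4 and 6 a 24 h array each. Neither 0 h nor 6 h arrays thus share a run with unmated ones.

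For each array, the level of the bright standard subunits was taken as the mean of their log2 signals minus the log2 median of the array. It was 5.06 ± 0.13 in unmated females (mean ± SD, n = 5) and 5.67 ± 0.23 right after mating (n = 6). The 3 h arrays averaged 5.17 ± 0.36 (n = 4), the 6 h arrays 5.83 ± 0.63 (n = 3) and the 24 h arrays 5.46 ± 0.52 (n = 3). The unmated arrays, between 4.89 and 5.22, did not overlap with the 0 h arrays, between 5.34 and 5.96. By run the level was 5.08 in run 1, 4.97 in run 2, 5.03 in run 3, 5.62 in run 4, 5.59 in run 5 and 6.29 in run 6. The first 3 runs, which hold all unmated arrays, were thus low, and the last 3, which hold all 0 h and 6 h arrays, were high.

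Arrays of the same time differed by run. At 3 h the array of run 5 stood at 5.71 and the others between 4.91 and 5.05. At 24 h the arrays stood at 5.03 in run 3, 5.32 in run 4 and 6.04 in run 6, and at 6 h at 5.59 in run 4, 5.36 in run 5 and 6.55 in run 6. Runs accounted for 83.3% of the variance of this level over the 21 arrays and groups for 46.5%. The same held gene by gene: all 49 had a larger share of variance between runs (median 82.6%) than between groups (median 33.3%), a comparison in which runs have 1 more category than groups. Each share, here and below, was computed on its own, so run and group shares overlap and cannot be added. The log2 ratio of 3' to 5' signal for the array's eIF-4a and GAPDH probe sets, which is higher where RNA is degraded, also moved with run, at 2.60, 4.53, 5.36, 4.13, 2.61 and 2.16 from run 1 to run 6. With this ratio as a covariate in the model, the median log2 change of the 68 genes was 0.36 at 0 h and at 6 h, against 0.42 and 0.46 without it.

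**Figure D4:**
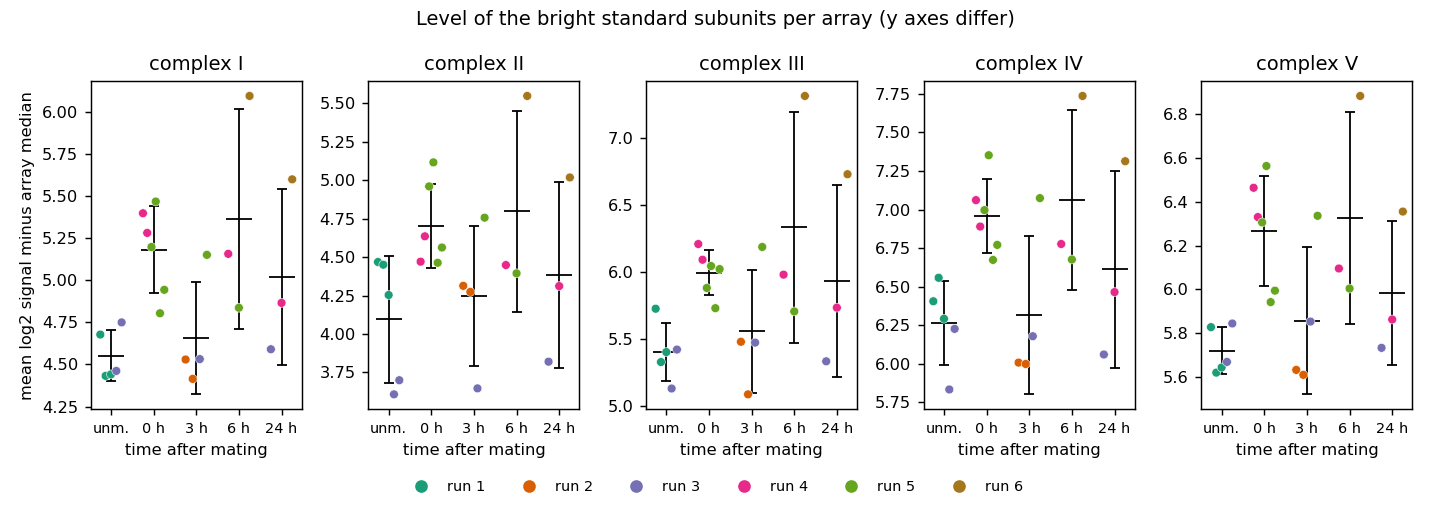
Level of the bright standard subunits on each array (mean log2 signal minus log2 array median), by complex and group, coloured by processing run; horizontal bars are group means and vertical bars 1 SD. In complex I the 3 h arrays lie between 4.41 and 4.53 except the run 5 array at 5.15, and the run 6 arrays are the highest of their groups in every complex.

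With run as a fixed term in the model, the medians at 0 h and 6 h no longer lay above 0, whereas with run as a random block they were 0.31 and 0.30. The median log2 change of the 68 genes was then -0.07 and -0.13 for the 0 h and 3 h arrays, and -0.21 and -0.28 for the 6 h and 24 h arrays. These estimates for 0 h and 6 h reach the unmated arrays only through the 3 h and 24 h arrays that share runs with both, so mating and run cannot be told apart by a direct contrast there. Of the 49 bright standard subunits 17, 14, 9 and 1 were above 0 in this fit, in order of time. All probe sets had medians of -0.14, -0.14, -0.17 and -0.04 in this fit, with 42.1%, 41.3%, 42.0% and 47.9% above 0. By median the members thus lay above all probe sets at 0 h, nearly level at 3 h (-0.130 against -0.135) and below them at 6 h and 24 h. Their share above 0 was lower than that of all probe sets at each time, at 33.8%, 30.9%, 23.5% and 10.3%. Probe sets whose mean signal exceeded the median of all had medians of -0.02, -0.02, -0.02 and 0.08, above those of the members at each time. None of the 68 genes passed, against 0.0143%, 0.0859%, 0.0358% and 0.0716% of all probe sets. By complex, the 24 h medians of the bright standard subunits were -0.28 for complex I, -0.06 for complex II, -0.21 for complexes III and IV and -0.31 for complex V. With every member gene they were -0.29, -0.11, -0.17, -0.28 and -0.31 for complexes I to V.

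Arrays within the same run allow direct comparisons, each of 1 array with 1 to 4 others and so without a test. In run 3 the bright standard subunits differed from unmated females by a median of -0.19 at 3 h, with 10 of 49 above 0, and of -0.17 at 24 h, with 7 above 0. In run 5 the 3 h array differed from the 0 h arrays by a median of 0.00, with 24 of 49 above 0, while the fit without run gave -0.53 for all 68 members. The 6 h array differed from the 0 h arrays by -0.11 in run 4 (19 above 0) and by -0.18 in run 5 (4 above 0). The 24 h array of run 4 lay -0.27 from the 0 h arrays, with 3 of 49 above 0. The 6 h array of run 5 differed from its 3 h array by -0.21, with 5 above 0, where the fit without run gave 0.54 for all members. In run 3 the 24 h array differed from the 3 h array by a median of 0.01, with 26 above 0. From 6 h to 24 h the medians were -0.14 in run 4 and -0.16 in run 6, with 9 of 49 above 0 in each. Over these comparisons the median of all 13966 probe sets was lowest for 3 h against unmated in run 3, at -0.10 (6199 above 0). It was highest for 24 h against 6 h in run 6, at 0.17 (8239 above 0).

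**Figure D5:**
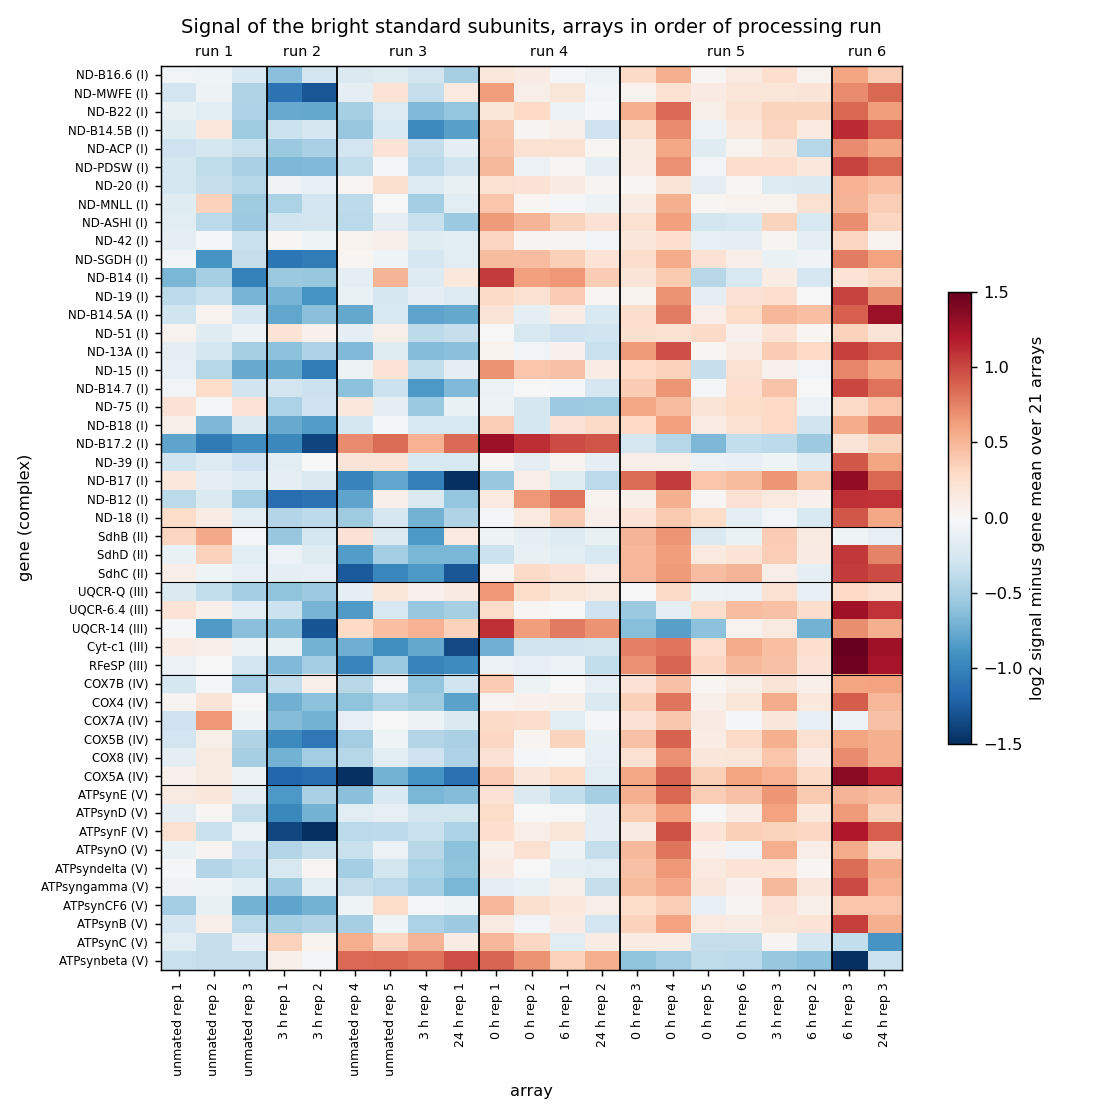
log2 signal of each of the 49 bright standard subunits on each of 21 arrays, relative to the mean of that gene, with arrays in order of processing run and genes by complex. Values beyond the colour scale take its end colour. Most rows are blue in runs 1 to 3 and red in runs 4 to 6, and among those that depart from this order are ND-51, ND-B17.2, SdhB, UQCR-14, ATPsynC and ATPsynbeta.

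Complex I, the NADH dehydrogenase, had the most measured subunits. ND-SGDH, an accessory subunit of the membrane arm, had signals of 1497, 835, 1205, 1577 and 1469 in unmated females and from 1657 to 2258 (median 1987) at 0 h. Its signals were 725, 747, 1436 and 1292 at 3 h, 1975, 1481 and 2628 at 6 h, and 1386, 1769 and 2348 at 24 h. All 0 h arrays were above all unmated and all 3 h arrays, and the lowest signals at 3 h were the run 2 arrays. The log2 change was 0.61 at 0 h (SE 0.26, adjusted p = 0.656) and -0.97 from 0 h to 3 h (SE 0.28, adjusted p = 0.478), and the F test over the course gave an adjusted p of 0.275. With run in the model the 0 h change was 0.17.

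ND-B22, another membrane-arm subunit, had signals of 2940.4, 2823, 2319, 2263 and 2769.7 in unmated females and from 3389 to 5736 (median 3828) at 0 h. The groups did not overlap, and its log2 change of 0.65 (SE 0.28, adjusted p = 0.645) became -0.07 with run in the model. ND-B12 had signals of 569.5, 646, 523, 435 and 794 in unmated females and of 1306, 786 and 1612 at 6 h. That of run 5 (786) fell inside the unmated range. Its log2 change of 1.03 at 6 h (SE 0.39, adjusted p = 0.165) was 0.13 with run. ND-19 had signals between 850.1 and 1279.9 in unmated females and of 1792, 1374 and 2779.6 at 6 h, a separation without overlap, with a log2 change of 0.82 (SE 0.32, adjusted p = 0.185) and of 0.11 with run.

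ND-MWFE, also of the membrane arm, was lowest on the 3 h arrays of run 2, at 1799 and 1593. The other 3 h arrays were at 4382 and 3014, and the unmated arrays lay between 2824 and 4451. Its log2 change at 3 h was -0.49 (SE 0.30, adjusted p = 0.772), and -0.21 with run. The log2 changes of 3 core subunits that take part in electron transfer were small beside these. ND-75, which holds iron-sulfur clusters, had log2 changes of 0.11 at 0 h and -0.20 at 6 h, ND-51, which binds NADH and FMN, of 0.15 and 0.08, and ND-20, next to the ubiquinone site, of 0.24 and 0.30. With run in the model all 3 were below 0 at both times, between -0.50 and -0.07. None passed, and no adjusted p of these 3 genes was under 0.579 at 0 h or 6 h.

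Complex II, the succinate dehydrogenase that also serves the citric acid cycle, held the smallest p-value at 0 h. SdhC had signals of 876, 786, 752, 341 and 417 in unmated females and from 839.7 to 1278 (median 1141) at 0 h. The lowest 2 unmated values came from run 3, and the highest unmated value, in run 1, overlapped with the 0 h range. At 3 h the signals were 749, 752, 876 and 450.4, at 6 h 954, 744 and 1699.9, and at 24 h 337, 877 and 1611. Its 0 h difference in log2 was 0.87 (SE 0.36, adjusted p = 0.636), and 0.35 with run. SdhD, the other membrane anchor, had log2 changes of 0.43, 0.11, 0.60 and 0.20 at the 4 times, with 89.8% of its variance between runs.

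SdhB, the iron-sulfur subunit of the same complex, had negative changes instead. Its signals were 1550.3, 1837, 1216, 1433 and 1064 in unmated females and from 1066 to 1962 (median 1164) at 0 h, and its log2 changes were -0.06, -0.50, -0.21 and -0.20 in order of time, the 3 h value with an SE of 0.29 and an adjusted p of 0.743. Runs accounted for 41.8% of its variance, less than for all but 1 of the 49. That gene was ND-42, an accessory subunit of complex I (35.4%).

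Complex II set against complex I on the same array varied more with run than with group. The difference of their mean log2 levels was between -0.63 and -0.41 in the 5 group means. By run it was -0.13 in run 1, -0.18 in run 2, -0.89 in run 3, -0.71 in run 4, -0.36 in run 5 and -0.56 in run 6. Runs accounted for 89.7% of its variance and groups for 6.52%. The unmated females thus held both the highest value, 0.02, and the lowest, -1.05, the one in run 1 and the other in run 3. For complex V against complex I the difference was 1.17 ± 0.05 in unmated females (SD, n = 5), 1.08 ± 0.04 right after mating (n = 6) and 1.20 ± 0.09 on the 3 h arrays (n = 4). The 6 h arrays gave 0.96 ± 0.19 (n = 3) and the 24 h arrays 0.97 ± 0.20 (n = 3), with 84.3% of the variance between runs and 48.01% between groups. The lowest values, 0.79 at 6 h and 0.76 at 24 h, were the arrays of run 6.

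Complex III, the cytochrome bc1 complex, showed the same run pattern in its catalytic subunits. RFeSP, the Rieske iron-sulfur protein, had signals of 933, 987, 812, 499 and 672 in unmated females and from 913 to 1808 (median 1309) at 0 h. At 3 h they were 626, 699, 1346 and 493.5, at 6 h 931, 1155 and 2713.5, and at 24 h 517, 769.9 and 2343. Its log2 changes were 0.74 at 0 h (SE 0.39) and 0.91 at 6 h (SE 0.47), with adjusted p = 0.684 and 0.315, and were 0.04 and -0.12 with run. Runs accounted for 94.2% of its variance.

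Cyt-c1, which passes electrons to cytochrome c, ranged from 626 on the 24 h array of run 3 to 5185 on the 6 h array of run 6. Its log2 changes were 0.53, 0.02, 0.85 and 0.18 at the 4 times, and its SD of 1.32 at 24 h exceeded each of them. With run they were -0.17, -0.08, -0.22 and -0.39. UQCR-Q had signals of 6509.9, 5887, 5341, 6938 and 8579 in unmated females and from 7134 to 11942 (median 8391) at 0 h, and a log2 change of 0.39 (SE 0.23, adjusted p = 0.741). UQCR-14 was brightest in run 4 (mean log2 signal 12.34) and run 6 (12.16) and dimmest in run 2 (10.57).

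Complex IV is cytochrome c oxidase. COX5A, one of its accessory subunits, had signals of 3585, 3761, 3245, 1195 and 2096 in unmated females and from 3837 to 6307 (median 4794) at 0 h. At 3 h they were 1512, 1552, 4925 and 1854, at 6 h 4146, 4176 and 8722, and at 24 h 1567, 3063 and 7643. The lowest 2 unmated values were those of run 3, and the high 3 h value was that of run 5. All 0 h arrays were above all unmated arrays, and its log2 changes of 0.91 at 0 h (SE 0.41, adjusted p = 0.665) and 1.06 at 6 h (SE 0.50, adjusted p = 0.271) were 0.36 and 0.18 with run.

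COX5B had log2 changes of 0.59 at 0 h (SE 0.29, adjusted p = 0.666) and 0.63 at 6 h (SE 0.35, adjusted p = 0.349), which turned to -0.09 and -0.14 with run. On the 3 h arrays its signal was 2509 and 2319 in run 2, 7027 in run 5 and 3571 in run 3. COX4 was alike, with 3586 and 3881 in run 2, 8724 in run 5 and 4099.8 in run 3, and its log2 changes were 0.42, -0.16, 0.55 and -0.01, and -0.05, 0.09, -0.10 and -0.35 with run. COX7B, the brightest gene of the complex, had signals between 4130.4 and 5849.6 in unmated females and from 5636 to 8056 (median 6587) at 0 h. The groups overlapped, with a log2 change of 0.43 (SE 0.24, adjusted p = 0.709), and -0.08 with run.

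In complex V, the catalytic subunit ATPsynbeta was below 0 at 0 h and 6 h in the model without run, where most others were above. It had signals of 766, 753, 756, 1751 and 1763 in unmated females and from 639.7 to 1771 (median 736) at 0 h. The other signals were 1023, 955, 653 and 1705 at 3 h, 1234, 632 and 341 at 6 h, and 1892, 1401 and 774 at 24 h. In each of the 5 groups the highest signals were those of runs 3 and 4. Its mean log2 signal by run was 9.57, 9.95, 10.80, 10.53, 9.40 and 9.01 from run 1 to run 6, and runs accounted for 89.97% of its variance against 18.1% for groups. The 3' to 5' ratio, too, was highest in run 3 and lowest in run 6, and its part in the signal was not tested. The log2 changes of ATPsynbeta were -0.19, -0.06, -0.72 and 0.26 in order of time, the 6 h value with an SE of 0.49 and an adjusted p of 0.468. Its 6 h change stayed below 0 with run in the model, where 40 of the 49 bright standard subunits were below 0 as well.

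ATPsynC, the ring subunit that carries protons through the membrane, also differed from the rest, with log2 changes of 0.02, 0.20, -0.30 and -0.26. Its second, dimmer probe set gave 0.19, -0.04, 0.02 and 0.18, opposite in sign at 3 h, 6 h and 24 h, and neither passed. ATPsyngamma, the rotating shaft, followed the majority in sign except at 3 h, where most were below 0. Its log2 changes were 0.38, 0.02, 0.62 and 0.04, and -0.14, -0.04, -0.08 and -0.40 with run. ATPsynE, a small subunit of the membrane part, followed the majority except at 24 h, where most were above 0. Its log2 changes were 0.51, -0.21, 0.31 and -0.09, and -0.07, -0.13, -0.31 and -0.35 with run. Runs accounted for 84.3% of the variance of ATPsyngamma and for 86.0% of that of ATPsynE.

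Across the 49 bright genes the run with the highest mean was run 6 for 41, and the run with the lowest mean was run 2 for 29 and run 3 for 12. The 8 genes that were highest elsewhere were ND-B14, ND-B17.2, UQCR-Q and UQCR-14 in run 4, ATPsynC and ATPsynbeta in run 3, ATPsynE in run 5 and SdhB in run 1. They were picked out by this pattern after their values were seen. ND-B17.2, an accessory subunit of complex I, had signals of 512, 426 and 467 on the unmated arrays of run 1 and of 1457 and 1585 on those of run 3, and 97.3% of its variance lay between runs, the highest share of the 49.

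Among the duplicated copies, the largest changes belonged to very dim probe sets. COX4L had the lowest log2 change at 0 h, 3 h and 24 h. Its signals were 10.3, 7.3, 3.6, 24.2 and 19.1 in unmated females and 2.3, 2.7 and 2.1 at 24 h, which lay below all unmated arrays. Its 24 h difference was -2.15 in log2 (SE 0.65, adjusted p = 0.424), and -2.79 with run in the model. SdhAL, the copy of the flavoprotein of complex II, had signals of 3.5, 4.9, 15.9, 54.7 and 16.6 in unmated females and of 3.1, 1.9 and 4.0 at 6 h, which overlapped with the lowest unmated arrays. Its log2 change at 6 h was -2.06 (SE 0.78, adjusted p = 0.164). At these levels the size of a change is uncertain.

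ND-20L had the highest log2 change at 6 h, 1.28 (SE 0.63, adjusted p = 0.298), and at 24 h, 0.99 (SE 0.63, adjusted p = 0.737). Its unmated signals spread from 13.7 to 148 and contained the 6 h values of 102, 135 and 122. With run in the model its changes were 2.67 at 6 h and 2.00 at 24 h. ND-B14.5AL, the copy of an accessory subunit of complex I, had signals of 191, 196, 189.8, 153 and 126 in unmated females and of 69.6, 106 and 146 at 24 h. The groups overlapped, and its change was -0.72 (SE 0.30, adjusted p = 0.590), or -0.95 with run. ATPsynbetaL had log2 changes of 0.35, -0.21, 0.12 and -0.55 in order of time, none of which passed, and of -0.47, -0.95, -0.78 and -1.08 with run.

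The remaining copies gave no call either. ND-51L1, ND-51L2 and ND-24L of complex I, SdhBL and SdhCL of complex II, UQCR-14L of complex III, COX5BL and COX7AL of complex IV, and ATPsynGL and ATPsynCF6L of complex V had mean signals between 4.32 and 70.7. The highest changes at the first 2 times belonged to dim genes outside the 15 copies. ND-B8 had a log2 change of 0.96 at 0 h (SE 0.52, adjusted p = 0.704), and of 3.04 with run. ATPsynepsilonL, whose place outside the copies is uncertain, had 0.34 at 3 h (SE 0.55, adjusted p = 0.937), and 0.67 with run. ND-B14 was the remaining gene with a small p at 24 h, with 0.64 (SE 0.37, adjusted p = 0.708), which turned to -0.24 with run.

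Other mitochondrial genes were read from lists of pathway members. Of 17 measured genes of the citric acid cycle and pyruvate dehydrogenase, which deliver the electrons, 0 passed at any time, with median log2 changes of -0.10, -0.07, -0.24 and -0.25 in order of time and 7, 8, 7 and 4 genes above 0. All probe sets had medians of -0.10, -0.14, -0.21 and -0.10. Of 13 respiratory chain assembly factors 0 passed, with medians of 0.13, 0.03, 0.56 and 0.24. Cox17, a copper chaperone of complex IV, and Surf1, needed for its assembly, had log2 changes of 0.89 and 0.79 at 6 h, neither past the threshold. With run in the model the assembly medians were -0.11, -0.03, 0.13 and -0.17.

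Among 15 carriers, channels and import components 1 rose and 0 fell at 6 h, where 1.84% of all probe sets passed, and 0 passed at the other times. The risen gene was Tim8, a chaperone of the intermembrane space, from a mean log2 signal of 8.41 ± 0.33 (SD, n = 5) to 9.89 ± 0.05 (n = 3), which is 1.48 higher (SE 0.35, adjusted p = 0.0313). The ATP/ADP carrier sesB had a log2 change of -0.29 at 6 h, and blw, the alpha subunit of the ATP synthase, which its symbol keeps outside the rule, of -0.11, against 0.25 at 0 h. Of 15 genes of oxidative stress and uncoupling, Bmcp, an inner membrane carrier of the uncoupling protein family, fell at 6 h (log2 change -2.12, SE 0.49, adjusted p = 0.0308), from a mean log2 signal of 5.50 ± 0.34 (n = 5) to 3.38 ± 0.34 (n = 3), both near or below the array medians. With run in the model 5 probe sets of all passed at 6 h in place of 257, and neither gene kept its call: Tim8 was at 0.92 (adjusted p = 0.592) and Bmcp at -3.42 (adjusted p = 0.130). Of 14 regulators of mitochondrial content 0 passed at any time.

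Markers of other cell types differed at 6 h as well, and their part in the subunits' values was not tested. Of 14 ovary and oocyte markers 3 rose at 6 h, against 1.84% of all probe sets passing in either direction, and their mean level relative to the array median was -1.28 to -0.48 in unmated females and 0.70 to 1.42 at 6 h. Of 10 neuronal markers 3 fell at 6 h (levels -1.28 to -0.66 in unmated females and -2.54 to -1.39 at 6 h). Of 8 spermatheca and accessory gland markers, which mark the tissue itself, 1 rose at 3 h and at 6 h, and it fell from 6 h to 24 h. The list's median log2 change at 6 h was -0.51, with 2 of 8 above 0. None of these 7 markers kept its 6 h call with run in the model, with adjusted p from 0.0791 to 0.531. With run the median log2 change at 6 h was 1.96 for the ovary and oocyte list, against 1.47 without it. For the neuronal list it was -1.35 against -1.05, and for the spermatheca and accessory gland list 0.13 against -0.51. The median SE over all probe sets at 6 h was 0.80 with run and 0.55 without. None of 16 muscle markers passed, with levels of 3.03 to 4.10 in unmated females and 2.99 to 3.24 at 6 h, and none of 14 fat body and hemocyte markers did. The fat body and hemocyte levels did not overlap, however, at 4.51 to 4.75 in unmated females and 4.23 to 4.33 at 6 h, with a median log2 change of -0.65 and 1 of 14 above 0. With run in the model that median was -0.33, and no 6 h array shared a run with an unmated one. The share of all probe sets that separate these groups is not given here.

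Genes outside the rule were compared with the mean of all 68 member genes, each taken as log2 signal minus the array median. Among 5530 candidates the closest over the 21 arrays were Glo1, a glyoxalase (Pearson r = 0.957), and NdufA3, a complex I subunit that the symbol rule does not catch (0.950). Next came Grx5, a mitochondrial glutaredoxin (0.946), RpL23, a ribosomal protein (0.942), and CG17776 (0.937). These correlations describe 21 arrays that share the 6 runs.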

How the data were processed

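RNA of the female lower reproductive tract was measured on 21 single-colour arrays. The authors deposited linear intensity values of 14010 probe sets. Per the submitters' processing notes RMA was used, without a version, but the deposited intensity values are not on a log scale and differ in their quartiles between arrays, so how probes were summarised is not settled. Log2 was taken without a pseudocount or further scaling. Left out were 44 control probe sets. Of the 13966 others, 12443 had 1 gene symbol, 327 several and 1196 none, and 12394 were given their current symbol through the gene identifier. A probe set with several symbols got no name. A gene was represented by its brightest probe set. No detection call was used, and precision is limited by how few arrays a group had.

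limma 3.58.1 in R 4.3.3 fitted 5 group means to all 21 arrays (lmFit, eBayes, 2-sided, Benjamini-Hochberg over 13966 probe sets, threshold 0.05), and p-values come from this fit unless the text names an alternative. The correlation of arrays within a run was 0.311. Named were the 3 smallest p-values per comparison with unmated females and in the F test, the highest and lowest change, the brightest gene per complex, core subunits, every duplicated copy, genes whose probe sets differ in sign, and the 5 most alike other genes. Alternatives were processing run as a fixed or random block, median or quantile scaling, array weights, a robust variance trend, a pseudocount of 16, a covariate for the 3' to 5' ratio, only the groups compared, every probe set, no dim probe sets, no run 6, and each array left out. Replicate numbers follow accession order and pair nothing. The procedure was tested on simulated data. Members, lists and tests were chosen with earlier results of these data known.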

Additional observations from a re-analysis of the deposited data

Results flagged for a closer look

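Of 144 checks for an array far from the others of its group, 10 stood out, where chance gives about 1 in 20. The checks covered the unmated, 0 h and 3 h groups only. The 6 h and 24 h groups had too few arrays, so theirs, those of run 6 included, were not checked. The 3 h array of run 5 (3 h replicate 3) was the highest of 4 in the level of the bright standard subunits (5.71), of complex I (5.15) and of complex IV (7.07), and in the log2 signal of COX4 (13.09) and ND-B22 (11.97). ND-B8 was highest on 3 h replicate 4 (4.86). In unmated females, ATPsynepsilonL was lowest on replicate 5 (4.07) and UQCR-14L highest on replicate 2 (5.59). At 0 h, ND-20L was lowest on replicate 3 (4.89) and ND-MWFE highest on replicate 1 (12.54). The causes were not tested.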

How the results depend on the processing

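No alternative gave a call of a member against unmated females, and none did for 6 h against 3 h or 24 h against 6 h. With array weights, 6 members passed for 3 h against 0 h (0.988% of all probe sets): ATPsynF, COX5A, COX5B, ND-B22, ND-MWFE and ND-SGDH, all lower at 3 h. That fit had no term for run. With run as a fixed block and no weights, the lowest adjusted p of a member for 3 h against 0 h was 0.829. ND-SGDH, 1 member, also passed the F test (2.03%). The median log2 change of members at 0 h was 0.62 with median centring, -0.069 with run as a fixed block and -0.049 for the bright standard subunits with that block. At 6 h these were 0.75, -0.21 and -0.20, and at 24 h -0.28 and -0.24 with the block, and -0.11 without run 6. For 3 h against 0 h the block gave -0.10, and -0.078 for the bright standard subunits, and for 6 h against 3 h -0.068 and -0.077. Median centring turned the 3 h median to 0.11.

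Leaving out each array in turn gave medians from 0.35 to 0.46 at 0 h, -0.27 (without 3 h replicate 3) to -0.03 (without 3 h replicate 1) at 3 h, 0.25 (without 6 h replicate 3) to 0.60 at 6 h, and -0.11 (without 24 h replicate 3) to 0.42 (without 24 h replicate 1) at 24 h. The ranges were -0.68 to -0.44 for 3 h against 0 h, 0.31 (without 6 h replicate 3) to 0.66 for 6 h against 3 h, and -0.53 (without 24 h replicate 3) to -0.03 (without 6 h replicate 3) for 24 h against 6 h. Over 41 named members in 4 comparisons with unmated females (164 results), 0 passed under any alternative. The lowest adjusted p was 0.0913, for ND-B12 at 6 h without dim probe sets. No paired analysis was possible because replicate numbers follow accession order. The uncentred scale, the bright subunits alone and the differences within runs were added after seeing the data. The causes of these differences were not tested.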
